A study of Rattus norvegicus with 8 samples.

Results

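Collagen IV, the nidogens and perlecan are the structural partners of laminin in the basement membrane, and they are followed here through 9 genes: the 6 collagen IV chains Col4a1 to Col4a6, the nidogens Nid1 and Nid2, and Hspg2, which encodes perlecan. The genes were taken as whole families by name, and their values were not part of the rule. Earlier results of these data were known when the families were chosen. Of the 37209 genes in the deposited count table, 8 members were found by symbol and Hspg2 by its gene ID. Reads were counted for 7 members, and these 7 were among the 14359 genes with enough counts for a test. Col4a5 and Col4a6 were listed at 0 in every artery.

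The study sequenced mRNA from carotid arteries of male Sprague-Dawley rats in which the left common carotid artery had its intima injured with a balloon dilatation catheter. The injured group held 4 left arteries (injured 1 to 4) harvested 2 weeks after the operation, and the control group held 4 undamaged right arteries (control 1 to 4), which served as the operated rats' own controls. No label says which left and right artery came from the same rat. All animals had thus been anesthetized and operated on, no artery came from an unoperated rat, and the labels give no age. Each library is bulk RNA of an artery, so that fewer cells of a type and less RNA per cell cannot be told apart.

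Basement membranes are thin sheets of matrix that lie under the endothelium and around each smooth muscle cell of the arterial wall. Collagen IV chains join as trimers and crosslink into a network that gives the sheet its tensile strength; the trimer of the chains encoded by Col4a1 and Col4a2 is found in nearly all basement membranes, while the Col4a3, Col4a4 and Col4a5 chains form the network best known from the kidney glomerulus, and the Col4a6 chain pairs with Col4a5. Nidogens link the collagen IV network to laminin, and perlecan is a large proteoglycan whose heparan sulfate chains bind growth factors and restrain smooth muscle proliferation.

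The collagen IV genes lie head to head in pairs, each pair reading outward from a short stretch of DNA that serves as a promoter for both. The stretch between the annotated starts of Col4a1 and Col4a2 was 76 bases long in RefSeq's GRCr8 assembly, at chr16:84885521-84885596. It is shown on the plus strand because Col4a1 was 1 of the 2 members called below, whereas Col4a2 was not called. Capitals mark the GC box.

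Col4a1-Col4a2 interval: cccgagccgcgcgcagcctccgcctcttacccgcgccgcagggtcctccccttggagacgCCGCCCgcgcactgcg

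Its GC content was 78.9%, against a median of 53.9% over the same window of 33469 rat promoters. Both strands were searched for the GC box GGGCGG, for CCAAT, for the CTC box CCCTCCCC and for the TATA box TATAAA, with overlaps between motifs allowed. Only the GC box was found, 1 time, 16 bases from the start of Col4a1, and 18.1% of all promoters held it in a window of this length. The starts of Col4a3 and Col4a4 lay 412 bases apart. The 250 bases before the start of Col4a3, at chr9:91323740-91323989 on the plus strand, lie inside that interval and are shown for comparison, since this pair behaved unlike the first.

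Col4a3 upstream: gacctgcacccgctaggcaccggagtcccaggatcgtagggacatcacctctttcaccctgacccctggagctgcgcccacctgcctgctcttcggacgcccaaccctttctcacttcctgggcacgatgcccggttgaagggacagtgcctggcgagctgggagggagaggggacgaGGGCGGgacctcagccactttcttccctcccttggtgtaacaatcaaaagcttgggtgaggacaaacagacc

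Here the GC content was 62%, against a median of 51.2%, and of the same 4 motifs only the GC box was found, 1 time, 72 bases before the start of Col4a3. In windows of this length 30.5% of promoters held it. Promoter entries were at hand for 8 of the 9 members, and Nid2 was the member without one.

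The total count lay between 13470754 and 15276952 in the control arteries and between 11459632 and 16658089 in the injured arteries, and 3 counts, the smallest level read as detected, equalled 0.18 to 0.262 CPM, the unit used throughout, in which each library is brought to a shared total with the TMM factors of edgeR. Every member with reads lay far above this floor. Control artery 4 stood apart: its mean correlation with the other controls was 0.841, and the 6 sympathetic neuron markers together reached 8135 CPM in it, against at most 4.16 CPM in the other controls. Their part in the results was not tested, and each member is therefore given with and without that artery. The arterial identity of the tissue was seen in the smooth muscle markers (17283 to 50154 CPM summed over Myh11, Acta2, Cnn1, Tagln, Lmod1 and Smtn in the controls), whereas the 5 brain markers (Neurod6, Slc17a7, Gad2, Gad1 and Camk2a) summed to at most 5.56 CPM outside control 4 and to 20.3 CPM in it, mostly from Camk2a with 284 counts.

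Compared with the undamaged arteries, the injured arteries held more Col4a1 and Nid2 mRNA. A gene was called when its false discovery rate (FDR, Benjamini-Hochberg adjustment over all genes tested, edgeR's quasi-likelihood test) was under 0.05 and its fold change above 2. By this rule 2 of the 7 tested members rose and 0 fell, whereas 10.9% of all tested genes were called, 8.31% as higher and 2.57% as lower. By the FDR alone 5 members passed (Col4a1, Col4a2, Col4a3, Col4a4 and Nid2), against 17.2% of all genes. Only Col4a1 and Nid2 kept an FDR under 0.05 whichever single artery was removed. The ranges of the groups did not overlap for 5 members, 4 higher and 1 lower, against 23.7% of all genes. The median log2 fold change was 0.75 over the 7 members and −0.06 over all genes tested. The members together took 0.321% to 0.633% of the counts of a control artery and 0.837% to 0.934% of those of an injured artery.

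Col4a1 encodes the chain that each common collagen IV trimer holds as a pair. Its level was 1300.2, 1303, 1339.5 and 804 CPM in control arteries 1 to 4 and 2312, 2626, 2291 and 2885 CPM in injured arteries 1 to 4. The lowest injured artery lay well above the highest control, and control 4 lay at 61.2% of the mean of the other controls. The mean rose from 1187 ± 256 to 2529 ± 283 CPM (SD, n = 4). On the log2 scale this was a difference of 1.09 ± 0.21 (SE), with a 95% interval of 0.62 to 1.56 and an FDR of 0.00968 in edgeR's quasi-likelihood test. Without control 4 the change was 0.94 (FDR 0.00117), below the 2-fold limit, so that the call rests on that artery. With the replicate number as a block, the change was 1.11 with an FDR of 0.0606 in edgeR's test, and the call was lost as well. The exact two-sided permutation test over the 70 relabellings gave p = 0.0286, the smallest it can give.

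Col4a2 encodes the partner chain of the same trimer. Control arteries 1 to 4 held 976, 944, 954 and 479 CPM, and injured arteries 1 to 4 held 1445, 1630, 1331 and 1785 CPM. Again all injured arteries lay above all controls, and control 4 was at 50% of its fellows. The log2 fold change was 0.88 ± 0.25 (SE, 95% interval 0.32 to 1.45), or 1.85-fold, with an FDR of 0.0433 in edgeR's test and an exact permutation p of 0.0286, so it passed the FDR but not the fold limit. Without control 4 it was 0.69 (FDR 0.00516), but without any 1 of the other 7 arteries the FDR was 0.0579 to 0.131, and with the replicate block 0.125.

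Col4a3 and Col4a4, the chains of the other network, had small counts and the opposite sign. Col4a3 lay at 32.5, 35.4, 33.8 and 20.6 CPM in control arteries 1 to 4 and at 13.8, 21.5, 15.1 and 18.1 CPM in injured arteries 1 to 4. The groups overlapped only through control 4, which lay between the highest injured arteries. The log2 fold change was −0.84 ± 0.22 (SE, 95% interval −1.33 to −0.34), with an FDR of 0.0327 in edgeR's test and an exact permutation p of 0.0571. Col4a4 lay at 11, 9.02, 10.2 and 10 CPM in the controls and at 4.96, 5.73, 7.69 and 7.04 CPM in the injured arteries, with no overlap, and control 4 did not stand apart for this gene. Its log2 fold change was −0.66 ± 0.19 (SE, 95% interval −1.09 to −0.23), with an FDR of 0.0459 in edgeR's test and an exact permutation p of 0.0286. Neither reached the 2-fold limit: Col4a3 was 1.79-fold and Col4a4 1.58-fold lower in the injured arteries. Without control 4 the changes were −0.99 (FDR 0.00336) and −0.67 (FDR 0.0442). Each lost its FDR pass in 6 of the 8 fits with an artery removed, where Col4a3 kept it only without control 4 or injured 2 and Col4a4 only without control 4 or injured 3. The highest FDR in those fits was 0.0903 for Col4a3 and 0.123 for Col4a4, and with the replicate block the FDR was 0.0815 and 0.115.

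Col4a5 and Col4a6 form the third pair, on chromosome X. Of 606 protein-coding genes of chromosome X found in the table by symbol, 592 (97.7%) were listed at 0 in every artery, against 9.62% of 16016 autosomal genes and at most 15.1% on any single autosome. The zeros of Col4a5 and Col4a6 are shared with nearly the whole chromosome as tabulated, so no level, change or absence is read from them.

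**Figure D1:**
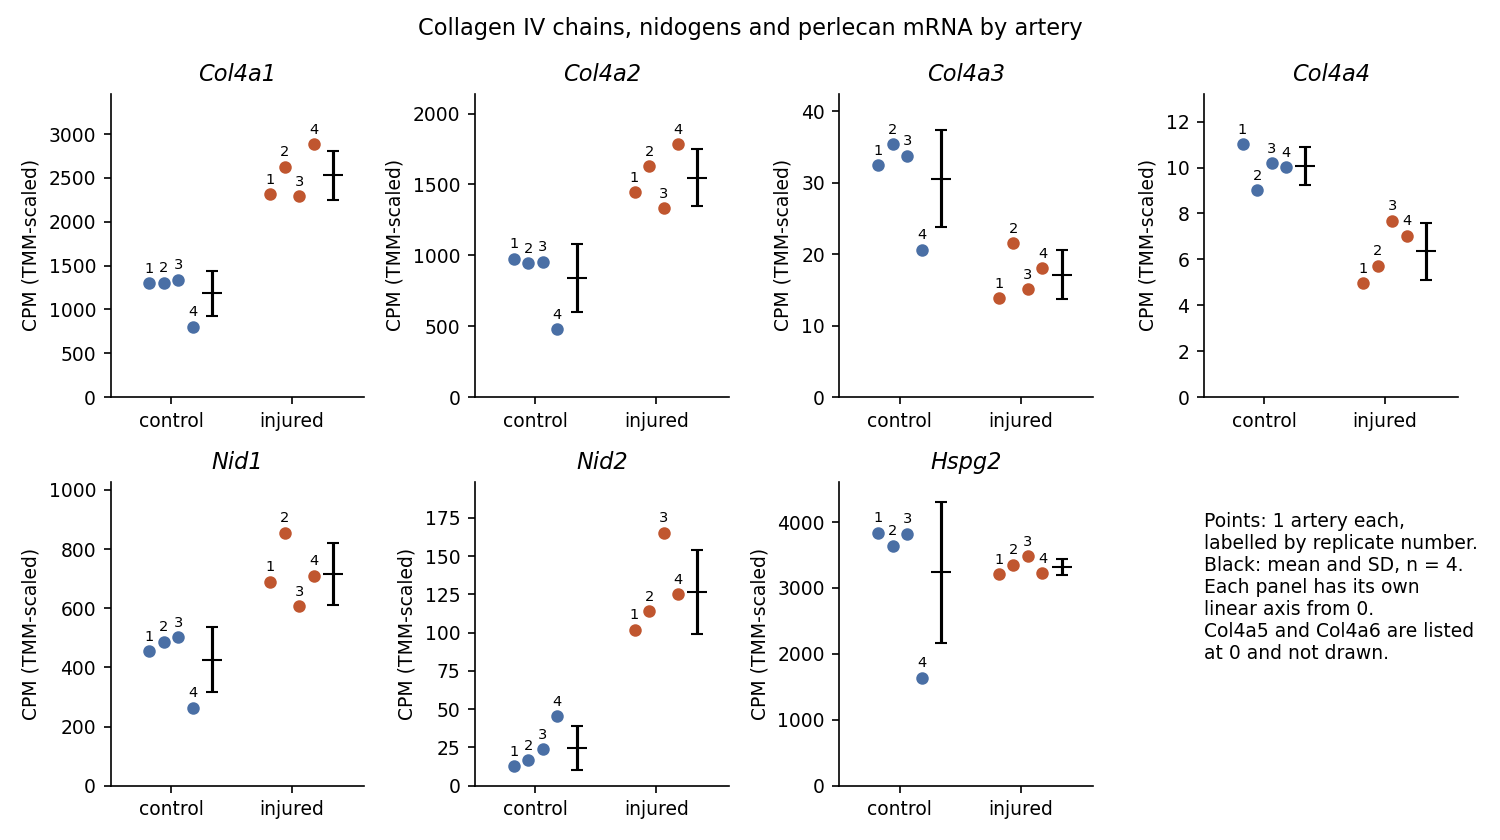
Level of each of the 7 counted members in every artery, in TMM-scaled CPM on a linear axis from 0 in each panel. Points are arteries numbered by replicate (blue control, orange injured) and black bars give the mean and SD (n = 4). Control 4 is the lowest control for Col4a1, Col4a2, Col4a3, Nid1 and Hspg2 and the highest for Nid2.

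Of the linker proteins, Nid2 showed the largest change of the 7 tested members and Nid1 a smaller one that was not called. Nid1, the nidogen found in most basement membranes, lay at 454, 486, 502 and 263 CPM in control arteries 1 to 4 and at 690, 856, 607 and 710 CPM in injured arteries 1 to 4, without overlap. Its log2 fold change was 0.75 ± 0.22 (SE, 95% interval 0.23 to 1.26), with an FDR of 0.0561 in edgeR's test and an exact permutation p of 0.0286. Without control 4 it was 0.57 with an FDR of 0.0135, past the FDR limit and still below 2-fold, and in the 7 other fits with an artery removed the FDR stayed above the limit.

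Nid2, whose product shares the linker domains of Nid1 and is prominent in vessel walls, lay at 12.6, 16.5, 23.7 and 45.3 CPM in control arteries 1 to 4 and at 102, 114, 165 and 125 CPM in injured arteries 1 to 4. The lowest injured artery thus held more than 2 times the highest control. Nid2 mRNA rose 5.15-fold, from 24.5 ± 14.6 to 127 ± 27.6 CPM (SD, n = 4). The fitted log2 fold change was 2.37 ± 0.40 (SE, 95% interval 1.45 to 3.28), with an FDR of 0.00589 in edgeR's test and an exact permutation p of 0.0286. Unlike the other members, Nid2 was highest among the controls in control 4, at 257% of the mean of the other controls. Without that artery the log2 fold change was 2.84 (FDR 0.000345).

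The arteries with the most Nid2 in each group were also rich in nerve markers. Control 4 and injured 3 held the highest Sox10 of their groups, a Schwann cell transcription factor, at 79.4 and 145 CPM, and the highest sympathetic neuron sums, at 8135 and 1746 CPM. Over the whole Schwann cell list of 6 markers, 0 of the 5 tested were called by edgeR (0 at an unadjusted p under 0.05, and 0 called by DESeq2), and the summed level ranged from 55.5 to 617 CPM in the controls and from 263 to 1230 CPM in the injured arteries. The part of these markers in the Nid2 difference was not tested. In the injured arteries with little sympathetic signal, Nid2 was still at 114 CPM in injured 2 and 125 CPM in injured 4.

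Hspg2, the gene of the perlecan core protein, gave no detectable difference. Control arteries 1 to 4 held 3840, 3642, 3820 and 1637 CPM and injured arteries 1 to 4 held 3207, 3356, 3483 and 3225 CPM. Control 4, at 43.5% of the mean of the other controls, lay below every injured artery, whereas the other controls lay above all of them. The mean was 3235 ± 1069 CPM in the controls and 3318 ± 129 CPM in the injured arteries (SD, n = 4), and the coefficient of variation was 33% and 3.88%. The log2 fold change was 0.04 ± 0.28 (SE, 95% interval −0.60 to 0.67; FDR 0.944 in edgeR's test, exact permutation p = 1). Without control 4 it was −0.19 with a 95% interval of −0.41 to 0.04 and an FDR of 0.185, so the sign of the difference rests on that artery.

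**Figure D2:**
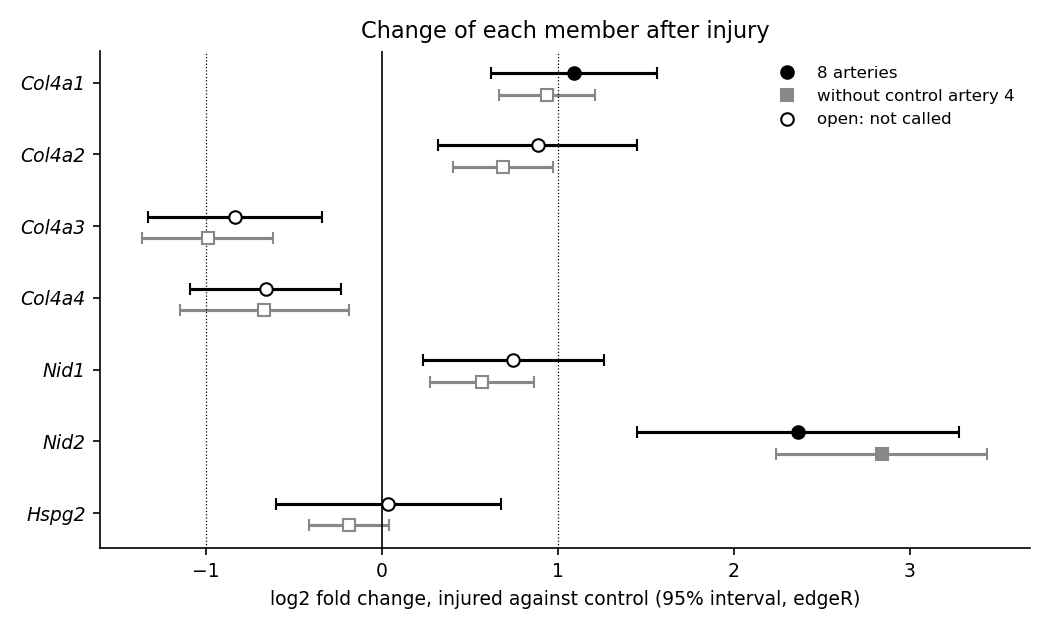
Log2 fold change of each member, injured against control, with its 95% interval from edgeR's quasi-likelihood fit, over all 8 arteries (circles) and without control artery 4 (squares). Filled symbols are called and dotted lines mark a 2-fold change. Nid2 is called in both fits (2.37 and 2.84), Col4a1 only with control 4 (1.09 against 0.94), and Hspg2 lies near 0.

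The proportions of the members within an artery were compared as ratios of counts, which do not depend on the scaling between libraries. The ratio of 2 genes' counts also carries their lengths, so only its change between the groups is read. The Hspg2 to Col4a1 ratio was 2.04 to 2.95 in the control and 1.12 to 1.52 in the injured arteries, without overlap. Its log2 change was −0.998 ± 0.156 (SE, n = 4 per group), and the exact two-sided permutation p was 0.0286, or 0.0714 after Benjamini-Hochberg adjustment over the 5 ratios tested, above 0.05. It held in size without control 4, at −1.12.

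The Nid1 to Col4a1 ratio was 0.327 to 0.375 in the controls and 0.246 to 0.326 in the injured arteries, a log2 change of −0.33 ± 0.10 (SE) with an exact permutation p of 0.0286 and an adjusted p of 0.0714. The Col4a2 to Col4a1 ratio, between the chains of 1 trimer, was 0.750, 0.724, 0.712 and 0.596 in control arteries 1 to 4 and 0.581 to 0.625 in the injured arteries. Its log2 change of −0.18 ± 0.08 (SE) had an exact permutation p of 0.114, and the groups overlapped through control 4 alone. Without that artery the change was −0.25.

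The ratios with Nid2 had the widest spread among the controls. Nid2 to Col4a1 changed by 1.40 ± 0.59 (SE) on the log2 scale (exact permutation p = 0.114), and by 1.93 without control 4. Nid2 to Nid1 changed by 1.73 ± 0.63 (SE; exact permutation p = 0.0857, adjusted p = 0.114), and by 2.30 without control 4. The ratio of Col4a4 to Col4a3, which was added after the levels had been seen, changed by 0.15 ± 0.27 (SE; exact permutation p = 0.571) and was within the spread between arteries. The ratio of Col4a5 to Col4a1 could not be formed.

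**Figure D3:**
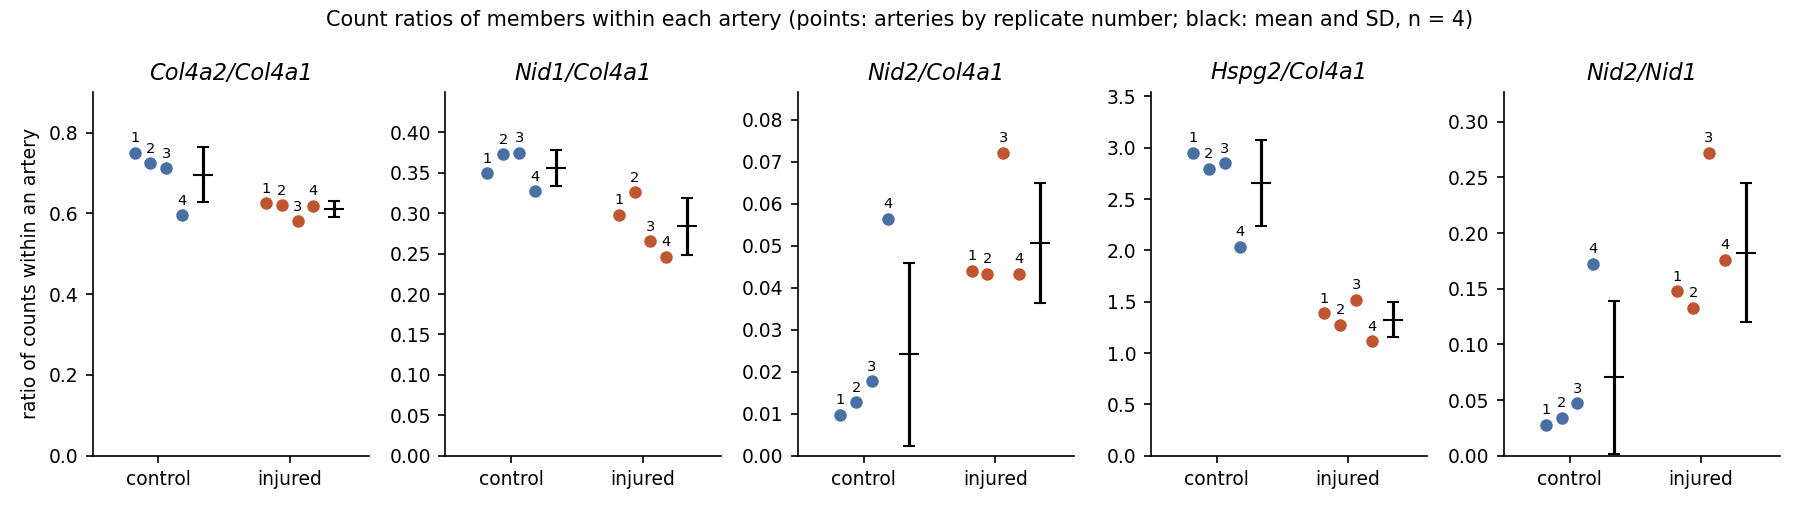
Ratio of the counts of 2 members within each artery (linear axes from 0), with points numbered by replicate and black bars for mean and SD (n = 4). Hspg2/Col4a1 separates the groups (2.04 to 2.95 against 1.12 to 1.52). Nid1/Col4a1 separates them only narrowly, with the lowest control at 0.327 and the highest injured artery at 0.326. Control 4 lies among the injured arteries for Col4a2/Col4a1 and both Nid2 ratios.

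Across the 8 arteries the members fell into different patterns, given here as a description over arteries that share the 2 groups and, in control 4, an unusual library. Log2 CPM of Col4a1 and Col4a2 had a Pearson r of 0.98, that of Col4a2 and Nid1 0.98 and that of Col4a1 and Nid1 0.95. Col4a3 followed Col4a4 with an r of 0.73 and ran opposite to Nid2 with an r of −0.90. Hspg2 had an r of 0.49 with Col4a1 and −0.16 with Nid2. Among all genes tested, the 5 whose levels were most like Col4a1 were Dok1 (a docking adaptor of tyrosine kinases), Cd276 (a B7 family surface protein), Gusb (lysosomal beta-glucuronidase), Runx2 (a transcription factor of bone formation) and Cyba (a subunit of NADPH oxidase), with r from 0.991 to 0.996. The 5 most like Nid2 were Rps6ka1 (a ribosomal S6 kinase), RT1-Da (a class II histocompatibility chain), Lhfpl2, Cd7 (a T cell surface protein) and Pdpn (podoplanin), with r from 0.985 to 0.992.

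The genes that work with these proteins were read from the same fit, in 7 lists of 81 genes, of which 75 were tested. Of these, 11 were called higher and 3 lower, whereas 8.31% of all genes tested were called higher and 2.57% lower. The median log2 fold change was 0.16 over the 75 partners and −0.06 over all genes tested. Laminins, the other network of the sheet, showed 1 of 9 tested chains higher (Lama3, log2 fold change 1.02 ± 0.20 SE) and 1 lower (Lamc3, −1.35 ± 0.39), with a list median of −0.02. Lamb2 (−0.39, FDR 0.392) and Lamc1 (0.34, FDR 0.249), the chains with the most counts, which also depend on gene length, were not called by edgeR. Of 12 other basement membrane components, Smoc2, a calcium-binding matricellular protein, rose by 2.08 ± 0.28, whereas fibulin 1 (Fbln1, −1.25 ± 0.36) and nephronectin (Npnt, −1.16 ± 0.30) fell. Sparc, a collagen-binding glycoprotein, and Col18a1, the source of endostatin, had the most counts of that list and were at −0.17 and 0.42, with FDR of 0.763 and 0.44 in edgeR's test. These lower calls were not firm: over 15 alternatives Lamc3 was called in 3, Fbln1 in 4 and Npnt in 5, and with an artery removed in 1, 2 and 1 of 8 fits. All were lost with upper-quartile factors and with library totals as the scaling, while their log2 fold changes stayed between −1.63 and −0.97. Lama3 lost its call without control 1, injured 1 or injured 2 (0.87 to 0.98, under the fold limit) and was not called by DESeq2.

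Of 12 tested genes for folding, export and crosslinking of collagen IV, only Pxdn was called: peroxidasin, the enzyme that forms the sulfilimine crosslink of collagen IV, rose from 266 to 570 CPM (log2 fold change 1.10 ± 0.19 SE, FDR 0.00711 in edgeR's test). Without control 4 it was at 0.98 and without injured 2 at 0.99, in both cases just under the fold limit. The collagen chaperone Serpinh1 and the disulfide isomerase P4hb, with the most counts of the list, were at 0.04 (FDR 0.929) and 0.35 (FDR 0.321), and the list median was 0.10. Of 11 receptors, only the collagen-binding integrin chain Itga2 was called by edgeR, and it rose by 1.22 ± 0.19. DESeq2 called 2 receptors higher and 0 lower. The beta integrin chain Itgb1 was at −0.68 (FDR 0.0731) and the laminin receptor Bcam at −0.92 (FDR 0.00788, below the fold limit). Of 12 tested enzymes that build heparan sulfate on perlecan, 0 were called by edgeR and 0 passed its FDR alone, with 3 at an unadjusted p under 0.05, and DESeq2 called 0. The list median was 0.13, and Ndst1 and Ext1, with the most counts, were at −0.36 (FDR 0.0657) and 0.22 (FDR 0.609).

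The enzymes that cut or process these proteins had the largest share of calls among the 7 lists, with 6 of 11 tested higher and 0 lower and a median of 1.28. Over all genes tested, 8.31% were called higher and 2.57% lower. The urokinase gene Plau rose by 2.72 ± 0.23 (SE), the elastin-degrading cathepsin Ctss by 2.46 ± 0.17, the procollagen protease Tll1 by 1.99 ± 0.22, heparanase (Hpse), which cuts heparan sulfate chains, by 1.34 ± 0.30, and the membrane protease Mmp14 by 1.28 ± 0.32. With each artery removed in turn, Mmp14 kept its call in 2 of 8 fits (without control 4 or injured 3) and Hpse in 6 (lost without control 1 or injured 2). The gelatinase Mmp9, a collagen IV protease, had 0 to 4 counts in each control artery and 51 to 374 counts in each injured artery, for which no fold is given. Mmp2, also a collagen IV protease, was at 0.07 (FDR 0.905 in edgeR's test), and Ctsb at 0.81 (FDR 0.00553, below the fold limit). Of the 8 growth factors, Tgfb1, a strong inducer of matrix genes, rose by 1.39 ± 0.16, while Tgfb3 and Vegfa were at −0.61 (FDR 0.257) and 0.48 (FDR 0.235).

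**Figure D4:**
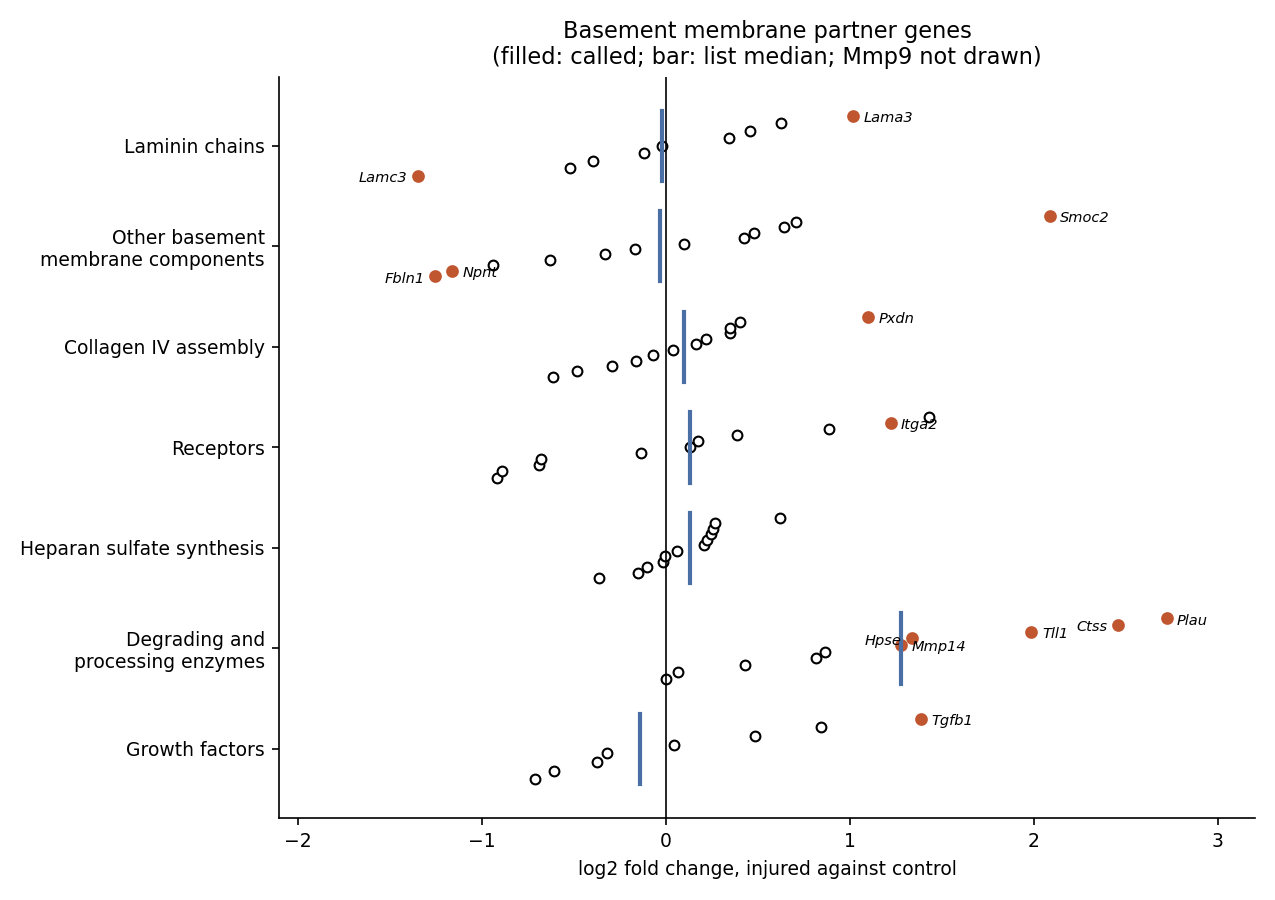
Log2 fold change of the partner genes tested, injured against control, by list, with filled points for called genes (named) and a blue bar at each list's median. Mmp9, with 0 to 4 counts in each control, is left out of the drawing; 5 of the other enzymes are called higher and their list's median is 1.28, whereas the other medians lie between −0.14 and 0.13.

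Marker genes of other cell types moved with injury as well. All 6 macrophage markers rose, with a summed level of 105 to 136 CPM in the controls and 537 to 728 CPM in the injured arteries, and all 5 proliferation markers rose, with a sum of 6.41 to 11.2 CPM in the controls and 69.8 to 103 CPM in the injured arteries. Of the 6 contractile smooth muscle markers 4 fell, and their sum was 10398 to 16382 CPM in the injured arteries. The endothelial sum was 802 to 2182 CPM in the controls and 697 to 1008 CPM in the injured arteries, with Cdh5 and Kdr higher and Vwf lower. Of 6 skeletal muscle markers 4 were higher, at 82.9 to 253 CPM and 216 to 853 CPM in sum, and of 5 fibroblast markers 2 were lower, at 2276 to 4797 CPM and 2024 to 3392 CPM. The adipocyte sum was 27 to 311 CPM and 10 to 124 CPM, with 0 of 4 markers called by edgeR, 1 at an unadjusted p under 0.05 and 1 called lower by DESeq2. The part of these cell types in the changes of Col4a1, Nid2 and the other members was not tested.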

How the data were processed

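Bulk RNA of 4 injured and 4 control carotid arteries was sequenced, and the authors deposited raw counts per gene without normalization. The submitters' processing notes name HISAT2 2.0.4; the counting tool, genome build, annotation and strand setting are not given in the sources used here. Groups and numbers came from the sample titles. One protocol label names prefrontal cortex, while the others name the carotid artery. The controls are the right arteries of the operated rats, but no source used here gives the rat of each library.

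Counts were filtered with filterByExpr, scaled with TMM factors and fitted with the quasi-likelihood test of edgeR 4.0.16 (R 4.3.3). Calls needed both a fold change over 2 and an FDR below 0.05. Standard errors were derived from the F statistic and 95% intervals from the total degrees of freedom of edgeR's test, prior plus residual. Ratios used counts plus 0.5 and an exact permutation test over 70 relabellings. DESeq2 1.42.0, other factors and filters, a replicate block and leaving out each artery were the alternatives. The procedure was tested on simulated data. Genes without a symbol match were sought by gene ID in RefSeq GRCr8. No transcript lengths were used, so levels were not read across genes; CPM order within a list, which also carries gene length, served only to choose partners to name. The depth of 11459632 to 16658089 counts set a floor of 3 counts, which covers counting error only. The members and lists were chosen with earlier results of these data known. Named were all members, every called partner, the 2 partners of each list with the highest CPM, and the 5 genes most correlated with Col4a1 and with Nid2; cell type markers were given by list.

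Same-numbered arteries were not treated as pairs: no label says that they came from 1 rat, and their deviations from the group means correlated at 0.30, 0.45, −0.52 and −0.42.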

Additional observations from a re-analysis of the deposited data

Results flagged for a closer look

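A group of 4 arteries was flagged when the gap beside its extreme artery took more of its range than Dixon's 95% critical value. Chance gives about 1 in 20 groups, or 1.3 of the 26 examined. These groups share arteries and counts and are not independent, so the number flagged is not a test against chance. Flagged were 6 groups. Control artery 4 was the extreme in 4 of them: it was lowest for Col4a1 (gap 0.927 of the range), Col4a2 (0.936) and Hspg2 (0.91) and for the Hspg2 to Col4a1 ratio (0.851). Injured artery 3 was the extreme in the other 2, with the lowest Col4a2 to Col4a1 ratio (0.857) and the highest Nid2 to Col4a1 ratio (0.968) of the injured arteries. These are also the arteries with the highest sympathetic neuron sums of their groups, 8135 and 1746 CPM, and the part of that tissue in the gaps was not tested.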

How the results depend on the processing

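Over 15 refits with other scalings, filters, DESeq2, a replicate block or 1 artery left out, Nid2 was called in 15 (log2 fold change 2.14 to 2.84) and Col4a1 in 13, and each member kept its sign except Hspg2, which was −0.19 without control 4 (range −0.19 to 0.12 over the arteries left out). In the fit with the replicate number as a block, Col4a1 was at 1.11 (FDR 0.0606 in edgeR's test), and 1 member, Nid2, and 8 partners were called. That number is not known to mark the rat, and only 3 of 8 arteries correlated best with the artery of their own number. Members called numbered 5 by the FDR alone, 1 when tested against a fold of 2, and 1 to 2 with an artery left out (1 without control 4). Col4a2 was called with library totals alone (1.07), a scaling that shifted the median of all genes by 0.17 on the log2 scale. All genes called numbered 1007 with at least 10 counts in every artery, 2468 by the FDR alone, 661 against a fold of 2 and 1142 to 2398 with an artery left out, against 1562. Partners called numbered 5 against a fold of 2 and 7 to 17 with an artery left out (8 without control 1, 7 without injured 2), against 14. The Col4a4 to Col4a3 change was −0.0035 without injured 3 and −0.0035 to 0.33 over the arteries left out. The cause of these shifts was not tested. With 4 arteries a group, an exact permutation p cannot fall under 0.0286, and the 95% interval of Hspg2 leaves changes of up to 0.67 on the log2 scale undetected.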
